A study of Mus musculus with 12 samples.

Results

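The NRF2 antioxidant and glutathione genes were followed in 3T3 cells, an established mouse fibroblast line, after contact with cancer-cell vesicles. The set held 42 genes, chosen by symbol: NRF2 and its sensor, NRF2 targets, and genes of glutathione synthesis and transfer, of the thioredoxin system and of NADPH supply. All 42 symbols were found among the 32544 gene rows of the count table, and all 42 were among the 14279 genes that passed the filter on low counts. The cells were left untreated or received, for 24 h, extracellular vesicles (EVs, membrane-bound particles shed by cells) from MDA-MB-468, an established human breast cancer line. The donor cells were control cells (shCon), cells with CRIPTO knockdown (shCr) or cells overexpressing CRIPTO (CrOE), a cell-surface protein, and each of the 4 groups had 3 libraries of poly(A)-selected RNA. The EV dose is not given in the sources used here, and the labels do not say that replicates came from separate cultures, so p-values measure the spread between these libraries, which may be technical. The columns of the CrOE EV libraries were headed with the name of the protein alone and were matched to that group by elimination.

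NRF2, encoded by Nfe2l2, is a transcription factor that binds antioxidant response elements together with small MAF proteins. In unstressed cells KEAP1 captures NRF2 and hands it to the proteasome; electrophiles and oxidants modify cysteines of KEAP1, and NRF2 then accumulates, largely without a change in its own mRNA. Its classical targets make glutathione, reduce thioredoxin, supply NADPH, degrade haem, couple glutathione to electrophiles and export the conjugates, tasks that protect fibroblasts and other cells from oxidative damage.

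The core of the antioxidant response element, TGACNNNGC, was looked for on both strands in promoter sequences from RefSeq (build GRCm38.p6), each 300 bases long and running from 250 bases before the start site to 50 after it. Of the 42 genes, 35 had 45 promoters in that table, and 12 of the 35 genes (34.3%) held a match, against 14.0% of all genes in the table and 16.7% of those tested. A match describes letters in a window and is not evidence of a bound site. For Abcc1, Gclc, Gsr, Gsta4, Hmox1, Prdx6 and Sod3 no promoter was compared. The stretches below are from genes on which the results turn and read 5′ to 3′ along the gene's strand, with the match in capitals. The first are from genes that were higher after CrOE EVs, the last 2 from genes that were lower.
Gclm (chr3:122245393-122245461, + strand): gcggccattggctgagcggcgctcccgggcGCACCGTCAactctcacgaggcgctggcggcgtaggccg
Txnrd1 (chr10:82859084-82859152, + strand): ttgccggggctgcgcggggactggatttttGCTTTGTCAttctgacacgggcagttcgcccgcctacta
Abcc4, first promoter (chr14:118706220-118706274, - strand): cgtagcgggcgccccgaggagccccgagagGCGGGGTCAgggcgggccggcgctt
Abcc4, second promoter (chr14:118676932-118676984, - strand): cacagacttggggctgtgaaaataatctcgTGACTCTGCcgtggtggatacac
Srxn1 (chr2:152105542-152105570, + strand): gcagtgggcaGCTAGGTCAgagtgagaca
Nfe2l2 (chr2:75704865-75704913, - strand): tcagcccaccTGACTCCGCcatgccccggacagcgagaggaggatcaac
Mgst1 (chr6:138140441-138140509, + strand): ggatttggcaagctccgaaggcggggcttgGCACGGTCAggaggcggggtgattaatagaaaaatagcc
Gstm5 (chr3:107895782-107895850, + strand): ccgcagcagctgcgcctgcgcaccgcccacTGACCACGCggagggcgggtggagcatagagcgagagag

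Libraries held 25960054 to 37774020 estimated counts. Levels are given as CPM (counts scaled to a common library total, with TMM factors for library composition), and values of a group are listed for replicates 1, 2 and 3. A difference was called at an adjusted p under 0.05 by the quasi-likelihood test of edgeR, with Benjamini-Hochberg adjustment over all genes tested, and all adjusted p-values below come from that test. The share of mitochondrially encoded counts ranged from 0.495% to 1.7% and was lowest in untreated replicate 1 (0.495%), shCr EV replicate 1 (0.622%) and CrOE EV replicate 2 (0.693%). All 10 fibroblast markers were expressed, with a summed level of 15890 to 17001 CPM in untreated libraries, 17676 to 17850 CPM after shCon EVs, 12464 to 13991 CPM after shCr EVs and 4988 to 5174 CPM after CrOE EVs. The 6 epithelial markers summed to 1.14 to 1.69 CPM in untreated libraries, 0.966 to 1.26 CPM with shCon EVs, 0.987 to 1.51 CPM with shCr EVs and 2.39 to 3.3 CPM with CrOE EVs, with Epcam at 0 in every group. The macrophage list (6 genes, carried by Lyz2 and Cd14, with Adgre1 at 0 in untreated and CrOE EV libraries) summed to 129 to 140 CPM in untreated libraries, 123 to 134 CPM with shCon EVs, 173 to 246 CPM with shCr EVs and 32.3 to 38.2 CPM with CrOE EVs. In the same order, the adipocyte list (5 genes, Cidec and Lep at 0 throughout) summed to 21.4 to 26.8, 13.9 to 14.4, 11 to 16.6 and 1.74 to 2.13 CPM. The endothelial list (5 genes, mostly Vwf) summed to 2.21 to 3.04, 5.48 to 6.12, 4.19 to 5.57 and 17.4 to 20.2 CPM. What part these shifts have in the results was not tested, and in bulk RNA fewer cells of a kind and less RNA per cell cannot be told apart.

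After CrOE EVs the genes moved in both directions, as did the genes tested as a whole. Genes that rose included both subunits of glutamate-cysteine ligase (Gclc 8.67-fold), the transferases Gsta4 (9.06-fold) and Gsta1 (at least 159-fold, from an untreated level at the floor), the exporter Abcc4 (7.17-fold), Txnrd1 and Hmox1. Genes that fell included 6 of the 10 glutathione transferases, the peroxidases Gpx7 and Gpx8 and the superoxide dismutases Sod2 and Sod3, down to 44.0-fold for Sod3 and 95.8-fold for Gstt1. Of the 42 genes, 35 were called against untreated cells (83.3%, beside 73.7% of all genes tested), 19 higher and 16 lower (36.7% and 37.0% of all genes). With the added rule of at least a 2-fold change, 9 were higher (21.4%, beside 11.0% of all genes) and 10 lower (23.8%, beside 18.7%). The median log2 fold change was 0.08 for the set and 0.01 for all genes.

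After shCon EVs, 21 of the 42 were called against untreated cells (beside 38.1% of all genes tested), 11 higher and 10 lower (18.0% and 20.2% of all genes). After shCr EVs 29 were called (69.0%, beside 37.3%), 19 higher and 10 lower (18.4% and 18.8% of all genes). Each of these comparisons had 2 genes at least 2-fold higher, Gclc and Gsta1, and 3 at least 2-fold lower, Gpx1, Sod3 and Gstt1. Of all genes, 2.51% were at least 2-fold higher and 3.54% lower after shCon EVs, and 2.75% and 3.53% after shCr EVs. Medians were -0.04 and 0.16 on the log2 scale, with 0.01 and 0.02 for all genes. The 3 comparisons share the untreated libraries, so their values are set side by side and were not used as support for each other. With the 3 libraries of lowest mitochondrial share left out, a setting added after the data were seen, the calls were 13 higher and 12 lower for shCon EVs, 19 and 12 for shCr EVs, and 19 and 18 for CrOE EVs.

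**Figure D1:**
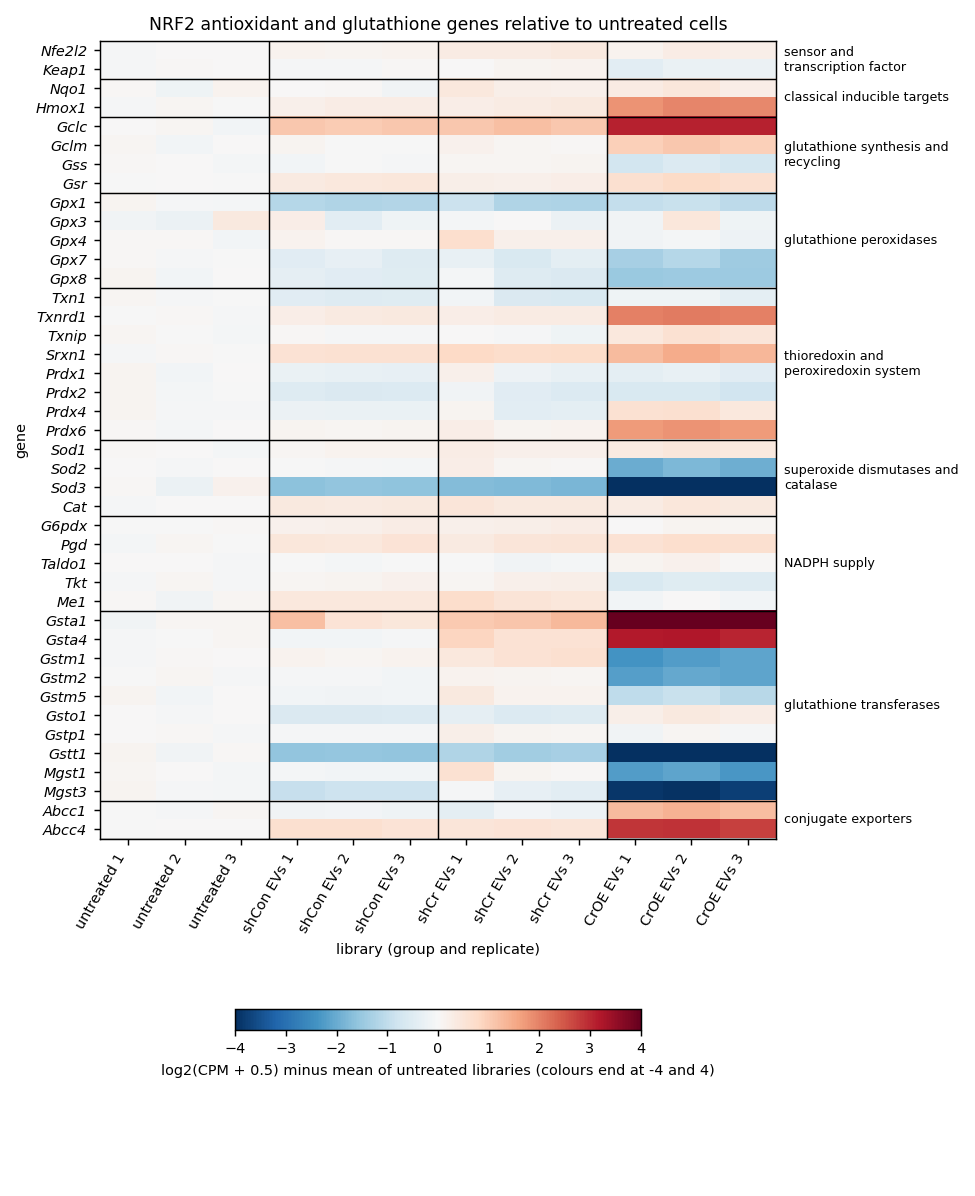
Rows are the 42 genes ordered by role and columns the 12 libraries; colour is log2(CPM + 0.5) minus the mean of the untreated libraries, ending at -4 and 4. The CrOE EV libraries hold the strongest colours of both signs, with Gclc, Gsta1, Gsta4 and Abcc4 red and Gstt1, Sod3 and Mgst3 blue.

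The regulators themselves moved little. Nfe2l2 had 135, 140 and 139 CPM in untreated libraries, 151, 150 and 152 CPM after shCon EVs, 172, 172 and 181 CPM after shCr EVs and 151, 171 and 164 CPM after CrOE EVs. Every EV library lay above the untreated ones. The log2 fold change against untreated cells was 0.34 ± 0.05 (SE, adjusted p = 1.92e-04) after shCr EVs and 0.23 ± 0.05 (adjusted p = 0.00116) after CrOE EVs. After shCon EVs it was 0.13 ± 0.05, which missed the threshold (adjusted p = 0.0587). That difference was called under 5 of 21 alternatives. These were upper-quartile scaling, DESeq2, only the 2 groups compared, and fits without shCr EV replicate 1 (adjusted p = 0.034) or CrOE EV replicate 1 (adjusted p = 0.0388). Keap1, the sensor that holds NRF2 back, had 87.9, 92.7 and 91.1 CPM in untreated libraries, 86.7, 87.9 and 93.8 CPM after shCon EVs, 90.9, 97.5 and 99.5 CPM after shCr EVs, and 67.6, 75.7 and 76.2 CPM after CrOE EVs. The CrOE EV libraries were the lowest 3 of the 12, with a log2 fold change of -0.31 ± 0.06 against untreated cells (adjusted p = 4.62e-04), while the other groups overlapped. Transcripts antisense to Keap1 overlap 10.9% of its exons, and whether reads were counted by strand is not given in the sources used here. The same limit applies to Txnip (19.4%), Gss (15.4%), Gstm5 (13.9%), G6pdx (13.6%) and Prdx2 (11.5%), where the overlap was larger.

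Both classical inducible targets rose after CrOE EVs, where 36.7% of all genes tested rose, and by very different amounts. Hmox1, which encodes the haem-degrading enzyme haem oxygenase 1, had 271, 297 and 276 CPM in untreated libraries, 326, 343 and 347 CPM after shCon EVs, 338, 354 and 366 CPM after shCr EVs and 985, 1085 and 1064 CPM after CrOE EVs. The untreated libraries were lowest and the CrOE EV libraries stood far above all others, while shCon and shCr EV libraries overlapped. The log2 fold changes against untreated cells were 0.27 ± 0.06 (adjusted p = 0.00257), 0.33 ± 0.06 (adjusted p = 6.07e-04) and 1.89 ± 0.06 (adjusted p = 1.12e-11) in the order shCon, shCr and CrOE EVs. Nqo1, the quinone reductase widely used as a readout of NRF2, had 26.1, 22 and 27.4 CPM in untreated libraries, 25.2, 25.8 and 22.6 CPM after shCon EVs, 33.7, 29.3 and 28.9 CPM after shCr EVs and 31.4, 34.4 and 30.3 CPM after CrOE EVs. Untreated and shCon EV libraries overlapped, and so did shCr and CrOE EV libraries, which were all above the first 2 groups. Nqo1 was 1.27-fold higher than in untreated cells after CrOE EVs (adjusted p = 0.00473) and 1.21-fold after shCr EVs (adjusted p = 0.0327). The shCr EV call on Nqo1 was lost under 5 of 21 alternatives, among them without shCr EV replicate 1 (adjusted p = 0.0794), without untreated replicate 1 (adjusted p = 0.0528) and without untreated replicate 2 (adjusted p = 0.117).

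Glutathione is made in 2 steps, the first and rate-limiting one by glutamate-cysteine ligase, a pair of the catalytic subunit Gclc and the modifier subunit Gclm. Gclc had 16, 16.5 and 14.6 CPM in untreated libraries, 33.5, 32.4 and 33.8 CPM after shCon EVs, 33.6, 36.4 and 33.5 CPM after shCr EVs and 135, 137 and 136 CPM after CrOE EVs. No EV library overlapped with the untreated ones, and shCon and shCr EV libraries overlapped with each other. Log2 fold changes of Gclc against untreated cells were 1.08 ± 0.06 (adjusted p = 3.53e-08), 1.13 ± 0.06 (adjusted p = 1.84e-08) and 3.12 ± 0.06 (adjusted p = 2.30e-13), and against shCon EVs the CrOE EV value was 2.04 ± 0.06 (adjusted p = 4.51e-12). Gclm had 53.6, 47.9 and 52.3 CPM in untreated libraries, 54.8, 50.4 and 50.7 CPM after shCon EVs, 57.7, 54 and 53.3 CPM after shCr EVs and 99, 109 and 98.8 CPM after CrOE EVs. Only the CrOE EV libraries stood apart, 1.99-fold above untreated cells (adjusted p = 1.18e-08). The log2 fold change of Gclm was 0.02 ± 0.06 after shCon EVs (adjusted p = 0.855) and 0.10 ± 0.06 after shCr EVs (adjusted p = 0.248), beside about 2-fold for Gclc in the same libraries. Gss, the synthetase of the second step, fell after CrOE EVs, with a log2 fold change of -0.68 ± 0.06 (adjusted p = 4.62e-07), from 34.9 ± 1.56 to 21.9 ± 1.59 CPM (SD, n = 3). Gsr, which reduces oxidised glutathione, had 62 ± 0.426 CPM in untreated libraries and rose with each kind of EV, to 82.3 ± 2.25 (shCon), 73 ± 1.7 (shCr) and 99.7 ± 4.95 CPM (CrOE).

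**Figure D2:**
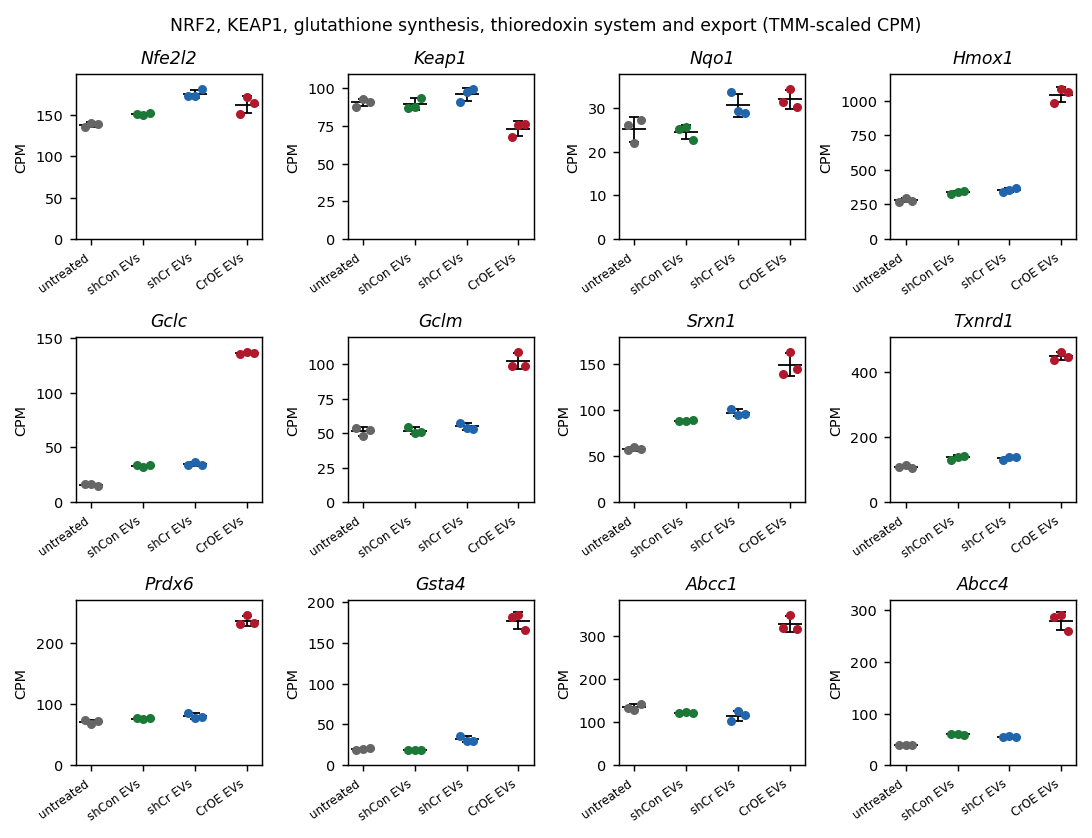
Each panel shows TMM-scaled CPM of 1 gene in the 12 libraries on an axis from 0, with points as libraries, the horizontal mark as the mean and bars as the SD (n = 3). In 9 panels the CrOE EV libraries lie above those of all other groups; Keap1 is lowest there, and Nfe2l2 and Nqo1 overlap with other groups.

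The thioredoxin and peroxiredoxin system had 8 genes, of which 5 rose and 2 fell after CrOE EVs (36.7% and 37.0% of all genes tested). In this system 87.5% were called, beside 73.7% of all genes. Txnrd1, the reductase that recharges cytosolic thioredoxin with NADPH, had 108, 114 and 106 CPM in untreated libraries, 131, 139 and 143 CPM after shCon EVs, 131, 138 and 138 CPM after shCr EVs and 440, 463 and 448 CPM after CrOE EVs. The shCon and shCr EV libraries overlapped above the untreated ones, and the CrOE EV libraries lay far above. Its log2 fold changes against untreated cells were 0.33 ± 0.05 (adjusted p = 2.41e-04), 0.31 ± 0.05 (adjusted p = 3.83e-04) and 2.04 ± 0.05 (adjusted p = 2.20e-12). Srxn1, sulfiredoxin, which restores over-oxidised peroxiredoxins, had 56.4, 60.3 and 57.3 CPM in untreated libraries, 87.6, 88.6 and 89.2 CPM after shCon EVs, 101, 94.6 and 96 CPM after shCr EVs and 139, 163 and 145 CPM after CrOE EVs. No group overlapped with another for Srxn1. It rose after all 3 kinds of EV, by 0.61 ± 0.06 (adjusted p = 8.64e-06), 0.75 ± 0.06 (adjusted p = 1.20e-06) and 1.36 ± 0.06 (adjusted p = 4.44e-10) on the log2 scale, and the difference between shCr and shCon EVs was 0.14 ± 0.06 (adjusted p = 0.205).

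The peroxiredoxins, thiol peroxidases that remove hydrogen peroxide, split. Prdx6, the member that uses glutathione, had 73.1, 67.8 and 71.8 CPM in untreated libraries, 76.4, 75.1 and 76.5 CPM after shCon EVs, 85.2, 76.6 and 78.5 CPM after shCr EVs and 231, 246 and 233 CPM after CrOE EVs. The CrOE EV libraries lay far above any other, with a log2 fold change of 1.74 ± 0.05 against untreated cells (adjusted p = 1.30e-11). Prdx4, which works in the endoplasmic reticulum, rose after CrOE EVs (0.56 ± 0.12 on the log2 scale, adjusted p = 8.70e-04), whereas cytosolic Prdx1 and Prdx2 fell, by 0.39 ± 0.11 (adjusted p = 0.00565) and 0.66 ± 0.09 (adjusted p = 2.40e-05). The lower Prdx1 value after shCon EVs (-0.30 ± 0.11, adjusted p = 0.046) lost its call without untreated replicate 1 or 3, any shCon EV library or any CrOE EV library (highest adjusted p 0.161). Of the 31-base stretches of Prdx1 transcripts, 15.2% occur in another gene. Prdx2 fell after the other EVs as well, with log2 fold changes of -0.55 ± 0.09 (adjusted p = 4.49e-04) after shCon EVs and -0.37 ± 0.09 (adjusted p = 0.00664) after shCr EVs. Txnip, an inhibitor of thioredoxin, rose after CrOE EVs from 50.3 ± 2.89 to 71.4 ± 4.54 CPM (SD, n = 3). Txn1, thioredoxin itself, had 168 ± 8.71 CPM in untreated libraries against 120 ± 1.8 (shCon EVs), 127 ± 25.5 (shCr EVs) and 142 ± 11.2 CPM (CrOE EVs). With CrOE EVs the log2 fold change of Txn1 was -0.25 ± 0.11 (adjusted p = 0.0588). That difference was called under 10 of 21 alternatives. Among them were upper-quartile scaling, DESeq2 and fits without shCr EV replicate 1 (adjusted p = 0.0013) or 3 (adjusted p = 0.0409). Txn1 was called lower after shCon EVs (-0.49 ± 0.11, adjusted p = 0.00396) and shCr EVs (-0.41 ± 0.11, adjusted p = 0.0107).

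None of the 5 glutathione peroxidases, which reduce peroxides with glutathione or related thiols, rose after CrOE EVs, and 3 fell. Gpx1, the abundant cytosolic selenoenzyme, had 220, 197 and 195 CPM in untreated libraries, 92.6, 88.4 and 91 CPM after shCon EVs, 112, 89 and 86.1 CPM after shCr EVs and 104, 109 and 99.4 CPM after CrOE EVs. All EV libraries lay well below the untreated ones. It fell by a similar amount after each kind of EV, with log2 fold changes of -1.17 ± 0.09 (adjusted p = 6.49e-07), -1.09 ± 0.09 (adjusted p = 1.06e-06) and -0.97 ± 0.09 (adjusted p = 4.58e-07), and none of the 3 differences between EV groups was called (largest 0.20 ± 0.09, CrOE against shCon EVs, adjusted p = 0.0571). That difference was called without shCr EV replicate 1 (adjusted p = 0.00386) or 3 (adjusted p = 0.0399), and Gpx1 also differed between CrOE and shCr EVs without shCr EV replicate 1 (log2 fold change 0.25, adjusted p = 0.00182).

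Gpx7 and Gpx8 are peroxidases of the endoplasmic reticulum, where disulfide formation yields hydrogen peroxide. Gpx8 had 74.3, 64 and 69.2 CPM in untreated libraries, 53.6, 50.6 and 48.9 CPM after shCon EVs, 65, 48.4 and 46.4 CPM after shCr EVs and 24.5, 24.9 and 24.8 CPM after CrOE EVs. The CrOE EV libraries lay below all others and shCr EV replicate 1 reached the untreated range. Gpx7, a low transcript, had 3.51, 3.28 and 3.35 CPM in untreated libraries, 2.33, 2.56 and 2.23 CPM after shCon EVs, 2.68, 2.02 and 2.46 CPM after shCr EVs and 1.05, 1.25 and 0.955 CPM after CrOE EVs. Its untreated libraries were highest and its CrOE EV libraries lowest, while the other groups overlapped. After CrOE EVs the log2 fold changes against untreated cells were -1.48 ± 0.11 for Gpx8 (adjusted p = 5.13e-08) and -1.64 ± 0.15 for Gpx7 (adjusted p = 6.20e-07). The smaller drop of Gpx7 after shCon EVs (-0.51 ± 0.14, adjusted p = 0.0143) was lost without shCon EV replicate 3 (adjusted p = 0.0546). After shCr EVs it was -0.50 ± 0.14 (adjusted p = 0.0146), and it was lost without shCr EV replicate 2 (adjusted p = 0.0644) and, narrowly, without untreated replicate 1 (adjusted p = 0.0505).

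Gpx4, which protects membrane lipids from peroxidation, had 246 ± 16.4 CPM in untreated libraries and 223 ± 12 CPM after CrOE EVs, with a log2 fold change of -0.14 ± 0.11 (adjusted p = 0.238; 0.0264 without shCr EV replicate 1). After shCr EVs it had 389, 284 and 280 CPM, and the log2 fold change of 0.37 ± 0.11 (adjusted p = 0.0162) became 0.20 (adjusted p = 0.0168) without replicate 1, the library of high value and low mitochondrial share, and was lost without untreated replicate 3 (adjusted p = 0.084). The part of that share in the result was not tested. Another gene, mostly a Gpx4 pseudogene, shares 38.9% of the 31-base stretches of Gpx4 transcripts, so its counts are uncertain. Gpx3, the secreted form, had 11 to 38 counts per library, and its log2 fold change after CrOE EVs was 0.09 ± 0.39 (adjusted p = 0.846), so that only a large difference was detectable at this depth.

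Superoxide dismutases turn superoxide into hydrogen peroxide, in the cytosol (Sod1), in mitochondria (Sod2) and outside the cell (Sod3). Sod3 had 369, 300 and 401 CPM in untreated libraries, 112, 119 and 115 CPM after shCon EVs, 107, 104 and 98.9 CPM after shCr EVs and 8.25, 8.26 and 7.81 CPM after CrOE EVs. No group overlapped with another. Log2 fold changes of Sod3 against untreated cells were -1.63 ± 0.09 (adjusted p = 3.13e-08), -1.79 ± 0.09 (adjusted p = 1.19e-08) and -5.46 ± 0.11 (adjusted p = 2.51e-13). Sod2 had 291, 278 and 286 CPM in untreated libraries, 282, 273 and 271 CPM after shCon EVs, 343, 298 and 292 CPM after shCr EVs and 71.8, 81.6 and 73.7 CPM after CrOE EVs. Only the CrOE EV libraries were far from the others, with a log2 fold change of -1.91 ± 0.07 (adjusted p = 4.34e-11), while the shCon EV value was -0.05 ± 0.07 (adjusted p = 0.569). Of the 31-base stretches of Sod2, 26.6% occur in another gene. Sod1 rose slightly after CrOE EVs (0.41 ± 0.05, adjusted p = 9.13e-06) and after shCr EVs (0.23 ± 0.05, adjusted p = 0.00289). Catalase, Cat, which splits hydrogen peroxide, was higher by nearly the same amount after shCon, shCr and CrOE EVs, with log2 fold changes of 0.37 ± 0.05 (adjusted p = 7.22e-05), 0.42 ± 0.05 (adjusted p = 2.47e-05) and 0.40 ± 0.05 (adjusted p = 7.43e-06).

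**Figure D3:**
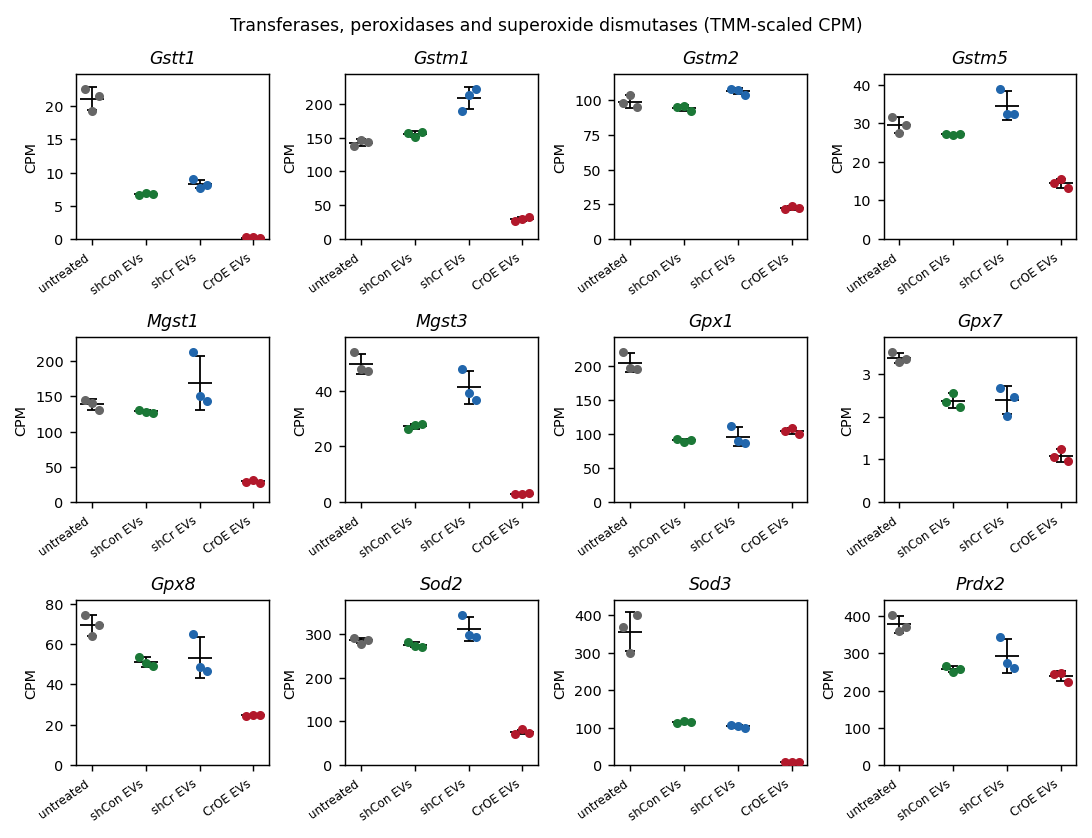
Panels show TMM-scaled CPM of 12 genes in the 12 libraries on axes from 0, with points as libraries, the horizontal mark as the mean and bars as the SD (n = 3). The CrOE EV libraries are lowest except for Gpx1, where all EV libraries lie at 86.1 to 112 CPM below 195 CPM or more in untreated cells.

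The 10 glutathione transferases attach glutathione to electrophiles, and they moved in both directions. After CrOE EVs 3 rose and 6 fell, beside 36.7% and 37.0% of all genes tested. Of the 3 that rose, 2 passed 2-fold, and so did all 6 that fell, beside 11.0% higher and 18.7% lower of all genes. Whether this split of 10 genes differs from that of all genes was not tested. Gsta4, the alpha-class enzyme with high activity towards the lipid peroxidation product 4-hydroxynonenal, had 18.8, 19.3 and 20.7 CPM in untreated libraries, 18.2, 18.1 and 18.8 CPM after shCon EVs, 36, 29.8 and 29.3 CPM after shCr EVs and 182, 184 and 166 CPM after CrOE EVs. Untreated and shCon EV libraries met at 18.8 CPM, shCr EV libraries lay above them, and CrOE EV libraries highest. Against untreated cells the log2 fold changes were -0.09 ± 0.08 (adjusted p = 0.417), 0.69 ± 0.08 (adjusted p = 2.33e-05) and 3.18 ± 0.08 (adjusted p = 2.42e-12).

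Gsta1 was almost silent in untreated cells. Its libraries held 0, 2 and 2 counts there, 21, 9 and 7 with shCon EVs, 18, 21 and 32 with shCr EVs and 529, 676 and 591 with CrOE EVs. The CrOE EV libraries, at 16.8, 19.7 and 16.6 CPM, overlapped with none of the others, and shCon and shCr EV libraries overlapped. Against a floor of 3 counts in each untreated library, Gsta1 was at least 3.89-fold higher with shCon EVs, 6.45-fold with shCr EVs and 159-fold with CrOE EVs. The shCon EV bound of Gsta1 rests on replicate 1, without which it was 2.47-fold. Between CrOE and shCon EVs the log2 fold change was 5.34 ± 0.26 (adjusted p = 8.37e-10). Gm3776 and other genes share 92.9% of the 31-base stretches of its transcripts, so the reads cannot be assigned to Gsta1 alone.

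Gstt1, of the theta class, had 22.6, 19.3 and 21.6 CPM in untreated libraries, 6.69, 6.97 and 6.74 CPM after shCon EVs, 8.99, 7.75 and 8.08 CPM after shCr EVs and 0.222, 0.262 and 0.168 CPM after CrOE EVs, the last from 7, 9 and 6 counts. No group overlapped with another. Log2 fold changes of Gstt1 against untreated cells were -1.64 ± 0.09 (adjusted p = 4.13e-08), -1.36 ± 0.09 (adjusted p = 1.43e-07) and -6.58 ± 0.14 (adjusted p = 5.65e-13). Mgst3, a membrane-bound transferase and peroxidase, had 53.9, 47.8 and 47.1 CPM in untreated libraries, 26.1, 27.7 and 27.9 CPM after shCon EVs, 47.7, 39.1 and 36.7 CPM after shCr EVs and 2.89, 2.76 and 3.14 CPM after CrOE EVs. Untreated and shCr EV libraries overlapped only through shCr EV replicate 1, shCon EV libraries lay below both and CrOE EV libraries lowest. After CrOE EVs the log2 fold change of Mgst3 was -4.08 ± 0.11 (adjusted p = 4.14e-12), and after shCon EVs -0.86 ± 0.09 (adjusted p = 1.25e-05). The shCr EV value of Mgst3, -0.27 ± 0.09 (adjusted p = 0.0326), was lost without untreated replicate 1 (adjusted p = 0.137) and without shCr EV replicate 2 or 3 (adjusted p = 0.107 and 0.127).

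The mu-class genes Gstm1, Gstm2 and Gstm5 and the membrane-bound Mgst1 fell with CrOE EVs, their log2 fold changes being -2.25 ± 0.08, -2.14 ± 0.06, -1.03 ± 0.09 and -2.25 ± 0.13, the highest adjusted p being 2.19e-07. None of these 4 was called after shCon EVs, where the values ran from -0.12 to 0.13. Gstm1 went from 143 ± 4.94 CPM in untreated libraries to 208 ± 16.7 after shCr EVs and 29.9 ± 2.85 after CrOE EVs (SD, n = 3). Counts of single mu-class genes are less certain, since 28.8% of the 31-base stretches of Gstm1 and 12.2% of those of Gstm2 occur in another gene. Gsto1, an omega-class enzyme that reduces disulfides and dehydroascorbate, was lower after shCon EVs (-0.56 ± 0.06, adjusted p = 6.62e-06) and shCr EVs (-0.47 ± 0.06, adjusted p = 2.63e-05) and higher after CrOE EVs (0.31 ± 0.06, adjusted p = 2.02e-04). Gstp1, the pi-class gene often raised in tumours, had 260 ± 7.98 CPM in untreated libraries and 256 ± 19.7 CPM after CrOE EVs (log2 fold change -0.02 ± 0.06, adjusted p = 0.793), and 38.5% of its 31-base stretches occur in another gene, mostly Gstp2.

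Both exporters of glutathione conjugates rose after CrOE EVs, where 36.7% of all genes tested rose. Abcc4 (MRP4), which also exports cyclic nucleotides, had 38.3, 39.6 and 39 CPM in untreated libraries, 60.9, 61.1 and 57.4 CPM after shCon EVs, 54.6, 56.8 and 54.4 CPM after shCr EVs and 287, 291 and 260 CPM after CrOE EVs. No group overlapped with another. Its log2 fold changes against untreated cells were 0.62 ± 0.05 (adjusted p = 2.52e-06), 0.50 ± 0.05 (adjusted p = 1.28e-05) and 2.84 ± 0.06 (adjusted p = 3.61e-13). Abcc1 (MRP1) had 132, 129 and 142 CPM in untreated libraries, 122, 124 and 120 CPM after shCon EVs, 102, 125 and 117 CPM after shCr EVs and 320, 349 and 316 CPM after CrOE EVs. Only the CrOE EV libraries lay above the untreated range, with a log2 fold change of 1.29 ± 0.07 (adjusted p = 2.97e-09). The shCr EV value of -0.23 ± 0.07 (adjusted p = 0.0207) was lost without untreated replicate 3 (adjusted p = 0.0809).

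NADPH feeds both glutathione reductase and thioredoxin reductase. None of its 5 supply genes passed 2-fold after CrOE EVs, beside 11.0% of all genes higher and 18.7% lower. Their log2 fold changes ran from -0.54 to 0.63. Pgd, of the oxidative pentose phosphate pathway, rose after each kind of EV, by 0.47 ± 0.06 (adjusted p = 5.15e-05), 0.46 ± 0.06 (adjusted p = 5.64e-05) and 0.63 ± 0.06 (adjusted p = 5.52e-07). G6pdx, the first enzyme of that pathway, and Me1, cytosolic malic enzyme, rose after shCon EVs (0.23 ± 0.05, adjusted p = 0.00467, and 0.42 ± 0.07, adjusted p = 6.50e-04) and shCr EVs (0.25 ± 0.05, adjusted p = 0.00263, and 0.57 ± 0.07, adjusted p = 5.11e-05). After CrOE EVs their log2 fold changes were 0.07 ± 0.05 (adjusted p = 0.239) and -0.07 ± 0.07 (adjusted p = 0.393). Tkt, the transketolase of the non-oxidative branch, fell after CrOE EVs (-0.54 ± 0.06, adjusted p = 3.87e-06), and Taldo1, transaldolase of the same branch, had a log2 fold change of 0.11 ± 0.05 (adjusted p = 0.0824; 0.0422 without shCr EV replicate 1). For Me1, 30% of the 31-base stretches occur in another gene, for Taldo1 14.0% and for G6pdx 12.6%.

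**Figure D4:**
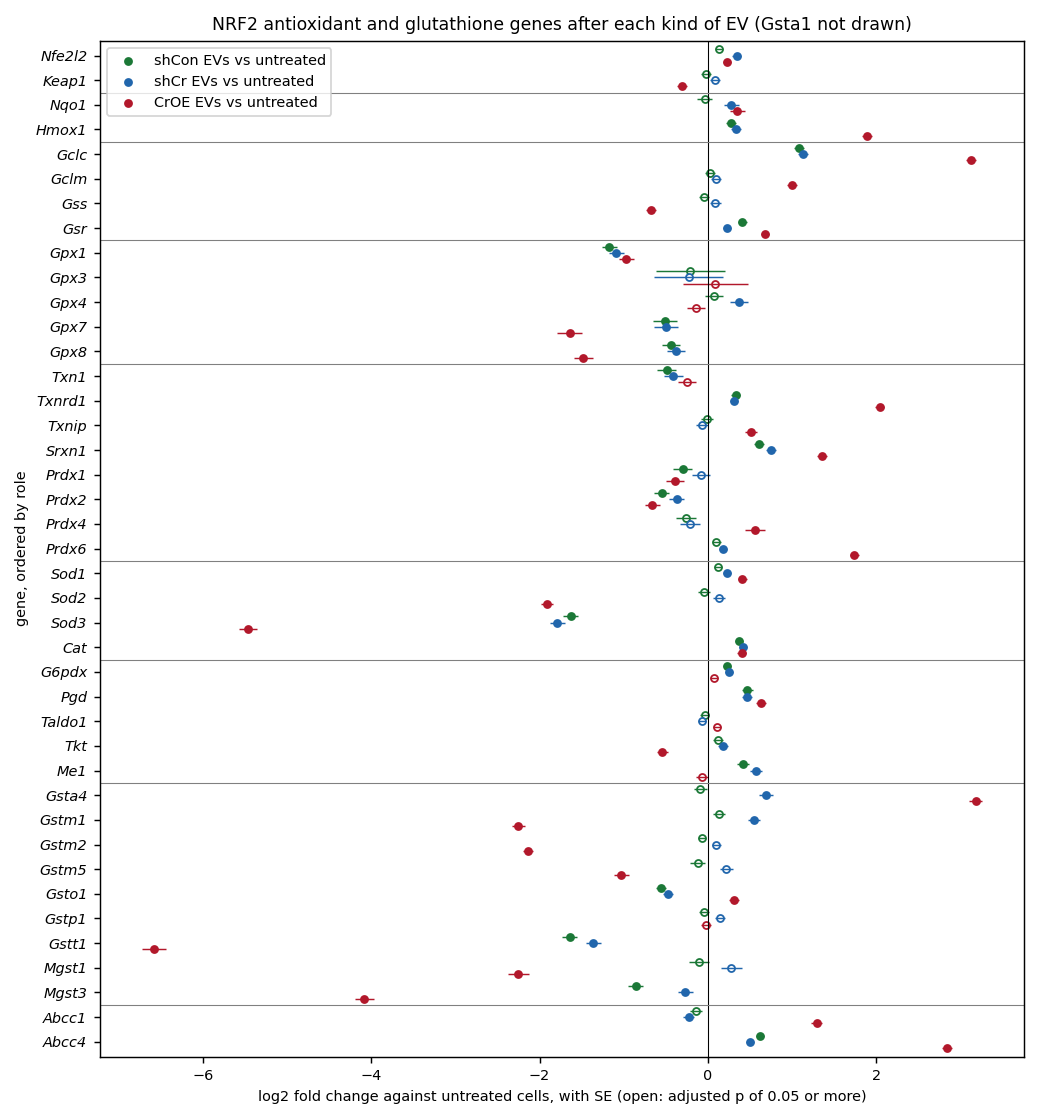
Points are log2 fold changes against untreated cells with SE for 41 of the 42 genes, ordered by role, after shCon, shCr and CrOE EVs; filled points have an adjusted p under 0.05 by edgeR's quasi-likelihood test, and Gsta1, at the floor in untreated cells, is left out. The CrOE EV points reach from -6.58 (Gstt1) to 3.18 (Gsta4), whereas shCon and shCr EV points lie between -1.79 and 1.13.

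The comparison of shCr with shCon EVs sets the donor cells with CRIPTO knockdown beside the control donor cells. Other differences between these donors or their EVs cannot be told apart from the knockdown. This comparison called 6 of the 42 (14.3%, beside 8.73% of all genes tested). Of these, 5 were higher with shCr EVs and 1 lower (5.22% and 3.51% of all genes). None passed 2-fold (0.399% of all genes higher, 0.357% lower). Gsta4 was higher by 0.78 ± 0.08 on the log2 scale (adjusted p = 8.77e-05), Mgst3 by 0.59 ± 0.09 (adjusted p = 0.00158) and Gstm1 by 0.42 ± 0.07 (adjusted p = 0.00305), and these 3 calls on glutathione transferases held under all 21 alternatives. The calls on Gstm5 (0.35 ± 0.08, adjusted p = 0.0238) and Nfe2l2 (0.21 ± 0.05, adjusted p = 0.0244) were each lost without any 1 of the 3 shCon EV libraries (highest adjusted p 0.0883 and 0.0989), and for Nfe2l2 also without shCr EV replicate 3. Gsr was lower with shCr EVs (-0.17 ± 0.05, adjusted p = 0.0476) and lost that call under 12 alternatives (highest adjusted p 0.174), 9 of which left out a library: untreated 1 or 3, any shCon EV library, shCr EV 2 or 3, or CrOE EV 1 or 3. Gclc, Hmox1, Txnrd1, Srxn1 and Abcc4 had values from -0.11 to 0.14, none of them called.

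The comparisons of CrOE EVs with the other EVs set the CRIPTO-overexpressing donor beside the shCon and shCr donors. None of the 4 groups is labelled as a control for overexpression. Other differences between these donors or their EVs therefore cannot be told apart from CRIPTO overexpression. Against shCon EVs 33 of the 42 were called (78.6%, beside 72.6% of all genes tested), 18 higher and 15 lower (36.5% and 36.1% of all genes), with 8 and 9 past 2-fold (19.0% and 21.4%, beside 9.31% and 17.9% of all genes). Against shCr EVs 36 were called (85.7%, beside 73.9%), 17 higher and 19 lower (36.9% and 37.0% of all genes), with 8 and 10 past 2-fold (19.0% and 23.8%, beside 11.0% and 18.6%). Log2 fold changes against shCon EVs were 2.04 ± 0.06 for Gclc, 1.71 ± 0.05 for Txnrd1, 1.62 ± 0.06 for Hmox1, 2.22 ± 0.06 for Abcc4 and 3.27 ± 0.08 for Gsta4. On the other side stood Gstt1 at -4.95 ± 0.15, Sod3 at -3.83 ± 0.10 and Mgst3 at -3.21 ± 0.11. The highest adjusted p of these 8 was 5.15e-11. Nqo1 differed from shCon EVs by 0.38 ± 0.09 (adjusted p = 0.00242) and from shCr EVs by 0.07 ± 0.09 (adjusted p = 0.536). Both comparisons use the same CrOE EV libraries, so their values are not independent.

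To order the genes, CPM was divided by the length in kilobases of all annotated exons of a gene together (GENCODE M21). This length can exceed that of the transcript expressed, so the order depends on the annotation. In untreated cells CPM alone put Prdx1 (411), Prdx2 (378) and Sod3 (357) above Gsto1 (345). Divided by length, the highest there were Gsto1 (170), Gstp1 (168), Hmox1 (161) and Txn1 (160), and the lowest was Gsta1 (0.0522). After CrOE EVs Hmox1 stood first at 597, followed by Gsto1 at 212, Gstp1 at 165 and Gsta4 at 140, the last of which had been at 15.5 in untreated cells. Sod3 went from 95.4 to 2.17 and Gclc from 4.17 to 36.2 on that scale.

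**Figure D5:**
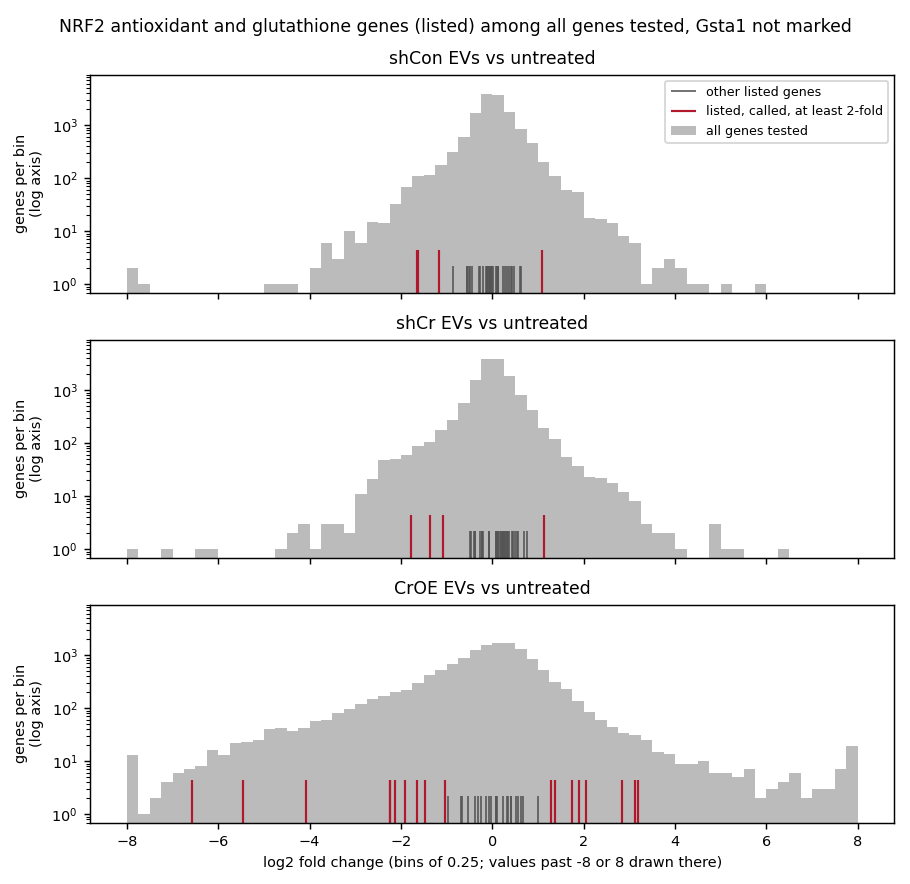
Grey bars count all 14279 genes tested by log2 fold change in bins of 0.25 on a log axis, and short ticks mark 41 of the 42 genes, red where called and at least 2-fold, with Gsta1 left out because untreated cells were at the floor. After CrOE EVs 18 red ticks lie on both flanks of a wide distribution; after shCon and shCr EVs there are 4 each.

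Set against the promoter matches counted above, of which only some are printed, 7 of the 12 genes with a match rose after CrOE EVs. Of the others 3 fell and 2 were not called, where 36.7% of all genes tested rose and 37.0% fell. Of the 23 genes with a promoter and no match, 6 rose, 12 fell and 5 were not called, and of the 7 genes for which no promoter was compared, 6 rose and 1 fell. Past 2-fold, the genes with a match were Abcc4, Srxn1 and Txnrd1 on the higher side and Mgst1 and Gstm5 on the lower side. Prdx1, the third gene with a match that fell, has its match 133 bases before the start site. The match of Srxn1 lies 28 bases past the start site, and Txnrd1, Mgst1, Pgd and Me1 also have promoters without a match. Among other tested genes, 38.8% of 1699 with a match rose and 37.8% fell, and of 8491 with a promoter and no match 37.7% rose and 37.8% fell. These counts are a description and were not tested, and Nqo1, without a match, says only that these letters do not occur in that window.

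Other genes of the pathway were counted from 3 lists written for this purpose. Of 11 other NRF2 regulators tested, 6 rose and 2 fell after CrOE EVs, so that 72.7% were called, beside 73.7% of all genes (36.7% higher and 37.0% lower). The small MAF partners Mafk and Mafg had log2 fold changes of 1.82 (26.3 ± 2.18 to 92.7 ± 1.92 CPM, adjusted p = 6.16e-11) and 1.42 (adjusted p = 5.77e-07), and Sqstm1 (p62), which draws KEAP1 into autophagy, one of 1.78 (871 ± 55.1 to 2986 ± 157 CPM, adjusted p = 2.33e-11). Of 23 other NRF2 targets tested, 8 rose and 14 fell (95.7% called). Slc7a11, the cystine importer that feeds glutathione synthesis, had 34 ± 3.58 CPM in untreated libraries, 73.9 ± 3.77 with shCon EVs, 87.1 ± 10 with shCr EVs and 368 ± 47 with CrOE EVs, and log2 fold changes of 1.12 (adjusted p = 5.78e-06), 1.36 (adjusted p = 9.48e-07) and 3.43 (adjusted p = 2.33e-11). The exporter Abcc3 (-5.81, adjusted p = 1.08e-10), the transferase Mgst2 (-3.43, adjusted p = 6.03e-10) and the retinal dehydrogenase Aldh1a1 (-3.09, adjusted p = 7.05e-07) fell. Among 32 other thiol redox genes tested, 4 rose and 20 fell (75.0% called), the latter including Selenop (listed as Sepp1), a secreted selenoprotein (-5.07, adjusted p = 1.23e-11), Gstm7 (-3.83, adjusted p = 1.45e-09), glutaredoxin Glrx (-3.19, adjusted p = 4.06e-12) and Ggt7 (-2.76, adjusted p = 1.18e-09). After shCon EVs the 3 lists had 4 higher and 1 lower, 6 and 9, and 4 and 12, beside 18.0% and 20.2% of all genes. After shCr EVs they had 5 and 1, 9 and 5, and 5 and 9, beside 18.4% and 18.8%.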

How the data were processed

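Per the labels' protocols, RNA was isolated with on-column DNase treatment and poly(A)-selected libraries were directional. The deposited table from the authors holds unscaled estimated counts per symbol, with 38.7% to 41.4% of values per library not whole. The submitters' processing notes name featureCounts and mm39, with no settings. In 27 rows, holding 0.223% to 0.259% of the counts, symbols had become dates. Values were rounded, where the design had assumed raw counts, and tested with edgeR 4.0.16 in R 4.3.3: filterByExpr, TMM and a quasi-likelihood F-test on all 12 libraries, with a mean per group, 8 residual degrees of freedom and Benjamini-Hochberg adjustment over 14279 genes. The biological coefficient of variation was 8.9%. The test was also run on simulated counts. Far fewer genes were changed there than were called after CrOE EVs, so it does not check the scaling in those comparisons. Values per library were printed for 8 genes set by name and, per role, up to 4 more with the largest change among called genes of at least 2-fold, no overlap and an average log2 CPM of at least 1. Genes, lists and that rule were chosen with earlier results of these data known. GENCODE M21 (GRCm38) gave lengths, shared 31-base stretches and antisense overlaps. Alternatives included DESeq2 1.42.0, other scalings, filters and left-out libraries. Counting error alone is covered by floors, since PCR copies were not separated.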

Additional observations from a re-analysis of the deposited data

How the results depend on the processing

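Across 6 comparisons and 42 genes, 204 of 252 results kept their call under every alternative run (21, or 20 for Gsta1 and Gstt1, which a minimum of 10 counts removed), 20 of 160 calls were lost under at least 1, 28 results gained a call and none reversed; all 35 calls of CrOE EVs against untreated cells were kept in the alternatives where the gene was tested. Requiring at least 10 counts in every library left 3 genes past 2-fold after shCon EVs and 3 after shCr EVs, in place of 5 each. Fitting only the 2 groups compared left 6 genes lower after shCr EVs in place of 10. Between shCr and shCon EVs, 9 genes were higher by DESeq2 and 3 with only these 2 groups, in place of 5, and the 1 lower gene, Gsr, became 0 without a filter and with only these 2 groups. DESeq2 called 1570 of all genes there, edgeR 1247. Leaving out each library in turn gave 3 to 6 genes higher (3 without shCon EV replicate 2 or 3), 0 to 1 lower and 0 to 1 past 2-fold, the latter being Gsta1 without shCon EV replicate 1. Estimated counts limit low genes most: Gpx3, Gsta1 and Gstt1.

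With the replicate number as a block, the lower count between shCr and shCon EVs was 0 and the higher count 6, and against untreated cells 11 and 10 genes were higher and lower after shCon EVs, 20 and 10 after shCr EVs, and 19 and 17 after CrOE EVs. Whether the numbers pair the libraries was not settled. Deviations correlated at -0.41 to 0.651 over 18 pairs with the same number, and at -0.608 to 0.618 with different numbers. They were taken from the mean of each group, so the correlations constrain each other and these ranges cannot exclude pairing.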
